A study of Mus musculus with 24 samples.

Results

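The miR-200 and miR-141 family comprises 5 mouse miRNAs whose 3p strands are near-identical, mmu-miR-200a-3p, mmu-miR-200b-3p, mmu-miR-429-3p, mmu-miR-200c-3p and mmu-miR-141-3p (the prefix, for mouse, is left out from here on). They were chosen by name, as the rows of the count table that hold these 3p strands, with earlier results of these data known. They make up 5 of the 1978 mature miRNAs in that table. Small RNA was sequenced from pachytene/diplotene spermatocytes and from round spermatids that were enriched on a BSA gravity gradient from the testes of male C57BL/6J mice aged 10 to 15 weeks. The 24 libraries form 6 groups of 4, one for each cell type in wild-type mice (Ago413+/+), heterozygotes (Ago413+/-) and mice homozygous for the deletion (Ago413-/-). The Ago413 allele removes all of Ago1 and part of Ago3 and Ago4, which lie in tandem, in every tissue of the animal and not in germ cells alone, and leaves Ago2 in place. Each preparation pooled the testes of 2 to 5 mice, and the labels give a purity above 70% for the fractions kept, so other testis cells can be present. The study's methods give a higher purity for round spermatids than for spermatocytes. The loss of the Ago genes could not be checked here, since the table holds miRNAs only.

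A miRNA is cut from a hairpin as a short duplex, of which the guide strand is held by an Argonaute protein and the passenger strand is mostly degraded. The guide pairs with target mRNAs through its seed, the bases that follow its first base at the 5′ end. The miR-200 family is known from epithelial cells, where it represses the transcription factors Zeb1 and Zeb2 and so keeps E-cadherin expressed. In mice, miR-200b and miR-429 are also known to be needed for female fertility.

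The 5 mature sequences are shown because their bases define the family and its pair of seed groups. The seed (bases 2 to 8 from the 5′ end) is in capitals, and the sequences and positions are those of RefSeq on the GRCm38.p6 mouse assembly, in which all 5 names were found.
miR-200b-3p: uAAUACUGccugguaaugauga
miR-200c-3p: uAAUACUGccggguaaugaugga
miR-429-3p: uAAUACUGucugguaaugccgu
miR-200a-3p: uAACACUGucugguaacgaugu
miR-141-3p: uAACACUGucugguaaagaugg

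The first 3 share the seed AAUACUG and the last 2 the seed AACACUG. The seed groups are set apart by 1 base, C4U from miR-200a-3p to miR-200b-3p, counted from 1 at the 5′ end. Within its seed group miR-141-3p differs from miR-200a-3p at 2 positions (C17A and U22G), and miR-200c-3p differs from miR-200b-3p at 2 positions (U11G and A22G) and is 1 base longer. Among the 1679 of 1978 miRNAs in the table whose sequence was found in RefSeq, no other miRNA had either seed. Because these strands differ at so few bases, a read cut short at its 3′ end could be counted for more than 1 of them, and how the counting treated such reads is not given in the sources used here. A part of the count of miR-141-3p that belongs to the more abundant miR-200a-3p therefore cannot be told apart.

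The hairpins lie in 2 clusters, both on the minus strand. Mir429, Mir200a and Mir200b lie within 1846 bases of chromosome 4 (chr4:156053905-156055750), inside introns of the protein-coding gene Ttll10, and Mir429 also overlaps an exon of the noncoding gene Gm13648. Mir141 and Mir200c lie within 477 bases of chromosome 6 (chr6:124717914-124718390), inside an intron of the noncoding gene Gm15884. The nearest protein-coding gene of the chromosome 6 pair is Phb2, 964 bases from Mir141 and 1372 bases from Mir200c on the plus strand. Each cluster thus holds a member of both seed groups.

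Library totals ran from 182904 to 1072637 counts, with the lowest in Ago413-/- spermatocytes (182904 to 369491). Levels are given as CPM, counts per unit of the library total after TMM scaling, and these strands are of nearly equal length. All 36 pairs of libraries of the same group differed by more than sampling noise (chi-square per degree of freedom of 26.8 or more). In these bulk samples, a lower level in a fraction with fewer cells of a type and a lower level per cell cannot be told apart.

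The family was of moderate abundance and was carried almost wholly by 4 of its 5 strands. Over the 24 libraries the 5 strands took 24463 counts, or 0.198% of all counts. miR-200b-3p held 9215 of these counts (37.7%), miR-200a-3p 8080 (33.0%), miR-200c-3p 5850 (23.9%), miR-429-3p 1140 (4.66%) and miR-141-3p 178 (0.728%). By mean CPM within a group, miR-200b-3p ranked between 94th and 118th of the miRNAs with any count, miR-200a-3p between 100th and 124th, miR-200c-3p between 100th and 135th and miR-429-3p between 190th and 234th. miR-141-3p ranked between 310th and 608th.

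All 5 strands reached 10 counts in at least 3 of the 24 libraries, the minimum for a test. miR-200a-3p (58 to 987 counts), miR-200b-3p (106 to 1033), miR-200c-3p (88 to 422) and miR-429-3p (11 to 125) reached it in all 24 libraries. miR-141-3p reached it in 7 libraries, 4 of spermatocytes and 3 of round spermatids, and ran from 0 counts in 3 libraries to 24. The opposite arms of the hairpins were far rarer. miR-200a-5p had 287 counts (3.43% of both arms) and reached 10 counts in 12 libraries, and miR-200b-5p had 113 (1.21%) and reached it in 3. miR-141-5p had 14 counts, the largest share of both arms in the family (7.29%) but in its scarcest hairpin, miR-200c-5p had 1 count, and miR-429-5p had 0 of the 1140 counts of its hairpin, which allows a share of up to 0.263%. No 5p arm was called changed in any genotype comparison in which it could be tested.

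**Figure D1:**
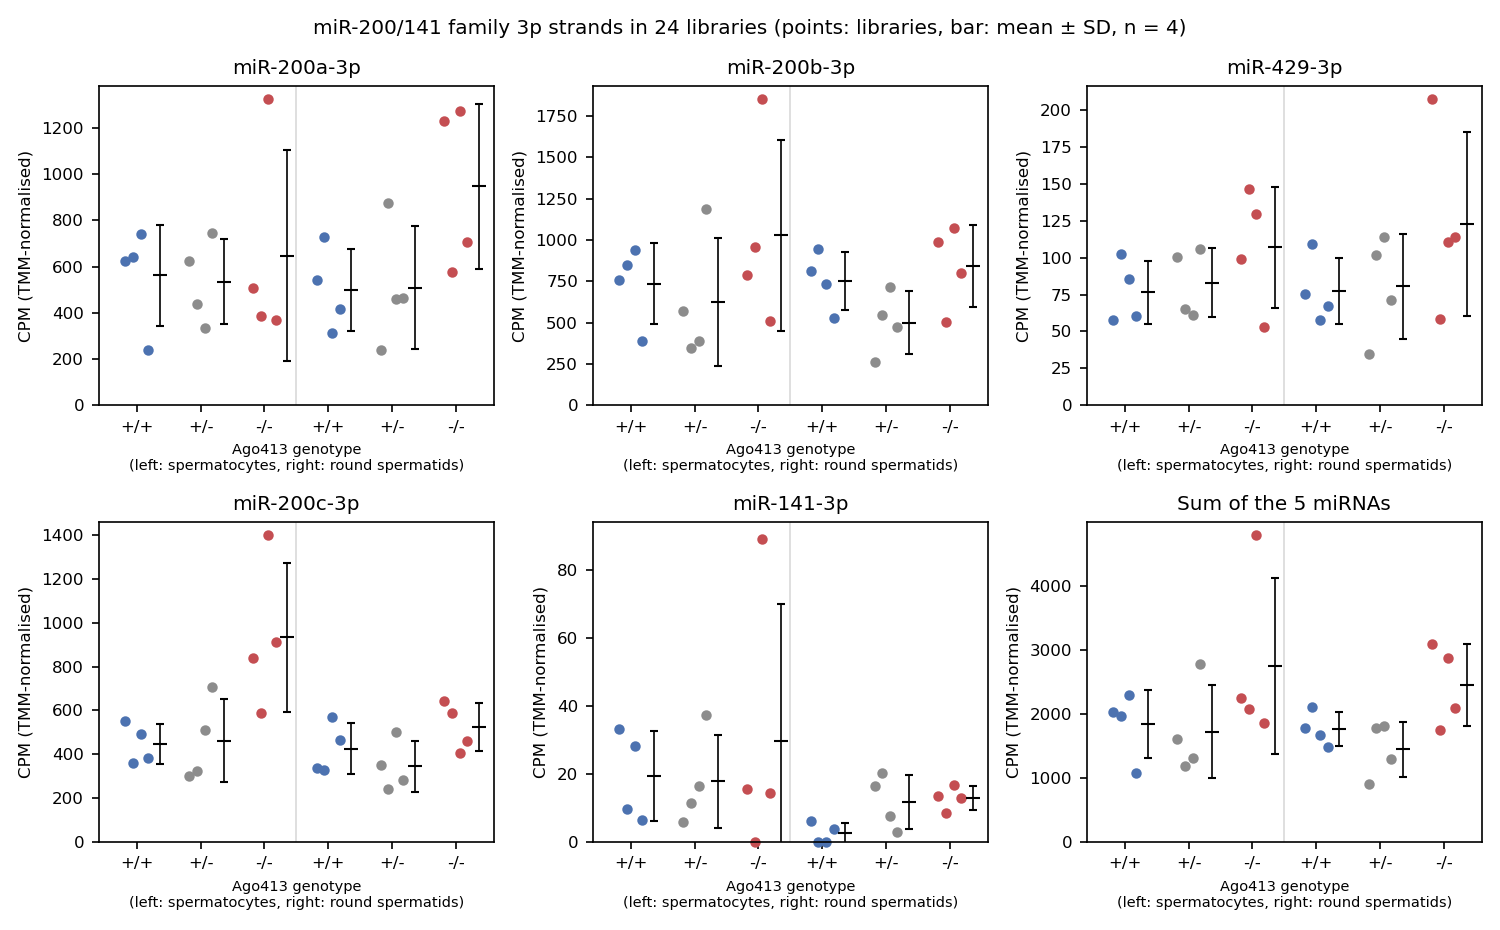
CPM of each of the 5 strands and of their sum (y axis, linear) in each library (points), by genotype (x axis), with spermatocytes left and round spermatids right of the grey line. Black bars are the mean ± SD of 4 libraries, and the lower end of the bar for miR-141-3p in some groups lies below 0 and is not drawn. Replicate 3 of the Ago413-/- spermatocytes stands at 4795 CPM in the summed panel, and miR-141-3p is lowest in Ago413+/+ round spermatids.

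In spermatocytes, none of the 5 strands passed the test between Ago413-/- and Ago413+/+, though all 5 means were higher in Ago413-/-. A log2 fold change above 0 was found for 49.0% of all miRNAs tested. The medians were lower in Ago413-/- for miR-200a-3p (447 against 633 CPM) and miR-141-3p (15.0 against 18.8 CPM). The largest difference was that of miR-200c-3p, one of the most abundant strands. Its levels were 551, 361, 493 and 381 CPM in Ago413+/+ replicates 1 to 4 and 840, 586, 1400 and 914 CPM in Ago413-/- replicates 1 to 4. Every Ago413-/- library was above every Ago413+/+ library, which held for 7.18% of the 404 miRNAs tested in spermatocytes. The log2 fold change was 1.04 (SE 0.355, adjusted p = 0.087), so the difference did not pass the threshold of an adjusted p of 0.05. It passed with DESeq2 in place of edgeR (1.02, adjusted p = 0.019), while the 8 fits that each left out 1 library gave 0.82 to 1.21 with adjusted p from 0.050 to 0.221.

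The chromosome 4 strands overlapped between these groups. miR-200b-3p, the most abundant strand, was at 735 ± 244 CPM (SD, n = 4) in Ago413+/+ and 1028 ± 580 in Ago413-/- spermatocytes (log2 fold change 0.45, SE 0.455). miR-200a-3p was at 562 ± 220 CPM in Ago413+/+ (241 to 740) and 647 ± 456 in Ago413-/- (log2 fold change 0.16, SE 0.450). Its 4 Ago413-/- libraries were at 507, 386, 1326 and 370 CPM, so that replicate 3 alone was above all Ago413+/+ libraries. miR-429-3p, the scarcest of the cluster, was at 76.6 ± 21.3 CPM in Ago413+/+ and 107 ± 41.1 in Ago413-/- (log2 fold change 0.45, SE 0.385).

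miR-141-3p rested on few counts. It had 20, 7, 24 and 2 counts in the Ago413+/+ and 6, 0, 24 and 3 in the Ago413-/- spermatocytes (log2 fold change 0.59, SE 0.769), with the 0 in the smallest library, where 3 counts would be 19.97 CPM. Across the family, 0 of 5 strands were called by edgeR, against 4.46% of the 404 miRNAs tested, 1 strand (miR-200c-3p) had an unadjusted p under 0.05 (25.5% of all), and DESeq2 called that strand. The median log2 fold change was 0.45 over the 5 strands and -0.05 over all miRNAs tested. Replicate 3 of the Ago413-/- spermatocytes bore on these signs. Without it the log2 fold change was -0.40 for miR-200a-3p and -0.78 for miR-141-3p, and it stayed above 0 for miR-200c-3p (0.82). With library totals in place of TMM, miR-200a-3p also fell to -0.02, beside a median of all miRNAs of -0.24.

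In round spermatids, 1 of the 5 strands, miR-141-3p, was called higher in Ago413-/- than in Ago413+/+, and it is the scarcest of the family. It reached the count minimum there only through Ago413+/- and Ago413-/- libraries, so a fold change above 0 was favored by that minimum. The separation of its groups and its ratio of rates, given below, carry the same limit. Of the 426 miRNAs tested in round spermatids 16.2% were called, and 7.51% were called higher. An unadjusted p under 0.05 was found for 2 of the 5 strands, miR-141-3p and miR-200a-3p, and for 36.2% of all. miR-141-3p had 3, 0, 0 and 3 counts in Ago413+/+ replicates 1 to 4 (6.10, 0, 0 and 3.60 CPM) and 8, 3, 13 and 6 counts in Ago413-/- (13.3, 8.35, 16.8 and 12.9 CPM). In the 2 libraries at 0, 3 counts would be 2.74 and 10.2 CPM, the latter above the lowest Ago413-/- value. As measured, every Ago413-/- library lay above every Ago413+/+ library, which held for 8.22% of the miRNAs tested. The log2 fold change was 2.55 (SE 0.781, adjusted p = 0.027). The pooled counts, 30 against 6, gave a ratio of rates of 6.17 with a 95% counting interval of 2.53 to 18.1, which covers counting error only.

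The call for miR-141-3p did not hold in every fit. The strand was tested in round spermatids only because 3 libraries held 10 counts or more, Ago413+/- replicates 1 and 2 (10 and 12 counts) and Ago413-/- replicate 3 (13), and no Ago413+/+ library did. Without Ago413+/+ replicate 2, the deepest library, the log2 fold change was 1.77 and the call was lost (adjusted p = 0.101), as it was without Ago413-/- replicate 1 (2.46, adjusted p = 0.066) and with the replicate number as a block (2.53, adjusted p = 0.054). Without Ago413-/- replicate 3 the strand no longer reached the count minimum.

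miR-200a-3p, which has the same seed, was the next largest of the family in round spermatids but did not pass the test. It stood at 543, 727, 311 and 415 CPM in Ago413+/+ and at 1230, 579, 1273 and 706 CPM in Ago413-/- replicates 1 to 4. Ago413+/+ replicate 2 was above Ago413-/- replicates 2 and 4, so the groups overlapped. The log2 fold change was 1.06 (SE 0.384, adjusted p = 0.055), and leaving out Ago413-/- replicate 2 brought it past the threshold (1.24, adjusted p = 0.036). That library was the lowest of Ago413-/-, so leaving it out favors a call. No other fit that left out 1 library called this strand in this comparison.

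The 3 strands with the seed AAUACUG differed less between these genotypes in round spermatids, and their groups overlapped. miR-200b-3p was at 754 ± 175 CPM in Ago413+/+ and 842 ± 251 in Ago413-/- (log2 fold change 0.31, SE 0.312, adjusted p = 0.490). miR-200c-3p was at 425 ± 116 and 524 ± 110 CPM (0.46, SE 0.274, adjusted p = 0.228). miR-429-3p was at 77.4 ± 22.7 and 123 ± 62.1 CPM (0.79, SE 0.393, adjusted p = 0.161), with the highest of its Ago413-/- libraries, replicate 1, at 208 CPM. The median log2 fold change was 0.79 over the 5 strands and 0.13 over all miRNAs tested. Whether the strands of the seed groups differed in their change was not tested.

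miRNAs of other cell types moved with genotype in round spermatids too. Of the 4 blood miRNAs listed, 3 were called higher in Ago413-/- than in Ago413+/+, beside 7.51% of the 426 miRNAs tested. The list was chosen with earlier results of these data known, so these shares do not make a fair contrast. Their log2 fold changes were 3.26 (miR-451a), 2.11 (miR-486a-5p) and 2.65 (miR-223-3p). miR-451a ran from 80.7 to 4359 CPM in Ago413-/- (median 500) and from 30.0 to 440 CPM in Ago413+/+. miR-486a-5p ran from 22.3 to 439 CPM in Ago413-/- (median 59.1) and from 19.2 to 54.1 CPM in Ago413+/+, so the groups of both overlapped. miR-144-3p did not reach the count minimum. miR-223-3p was tested although no Ago413+/+ library had more than 7 counts of it, so that the other genotypes alone brought it to the count minimum. Its fold change above 0 was favored by that minimum. The summed level of the list ran from 51.5 to 501 CPM in Ago413+/+ and from 122 to 4840 CPM in Ago413-/-. Of the 2 endothelial miRNAs, miR-126a-3p was called higher (1.63). The other, miR-126a-5p, ran from 0 to 51.1 CPM in Ago413+/+ and from 41.3 to 168 CPM in Ago413-/-, so its groups overlapped. The summed level of the 2 was 511 to 1988 CPM in Ago413+/+ and 1949 to 5852 in Ago413-/-. The part of these blood and endothelial miRNAs in the levels of the miR-200 family was not tested.

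Epithelial miRNAs did not rise together. Of the 3 listed, miR-205-5p had 1 to 11 counts in every library and was not tested, miR-203-3p had a log2 fold change of 0.88 (adjusted p = 0.055) and miR-375-3p one of -0.96 (adjusted p = 0.011, short of the fold threshold of 1) between Ago413-/- and Ago413+/+ round spermatids. Their summed level was 10793 to 18707 CPM in Ago413+/+ and 8609 to 12463 CPM in Ago413-/-. The 2 peritubular miRNAs, at a summed 1059 to 8545 CPM in Ago413+/+ and 2029 to 3440 CPM in Ago413-/-, and the 3 miRNAs of meiotic germ cells, at 59185 to 108282 and 70316 to 133692 CPM, had no member called (miR-449a-5p, of the latter, was at a log2 fold change of 0.98 with an adjusted p of 0.011). In spermatocytes no listed miRNA was called between Ago413-/- and Ago413+/+, and the 3 meiotic miRNAs summed to 58023 to 111990 CPM in Ago413+/+ and 18730 to 78790 CPM in Ago413-/-. The mean of this meiotic list was 88793 CPM in spermatocytes and 84232 CPM in round spermatids of Ago413+/+. It was 101304 and 123462 CPM in Ago413+/-, and 54430 and 90820 CPM in Ago413-/-. The list therefore did not set spermatocytes apart from round spermatids here.

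**Figure D2:**
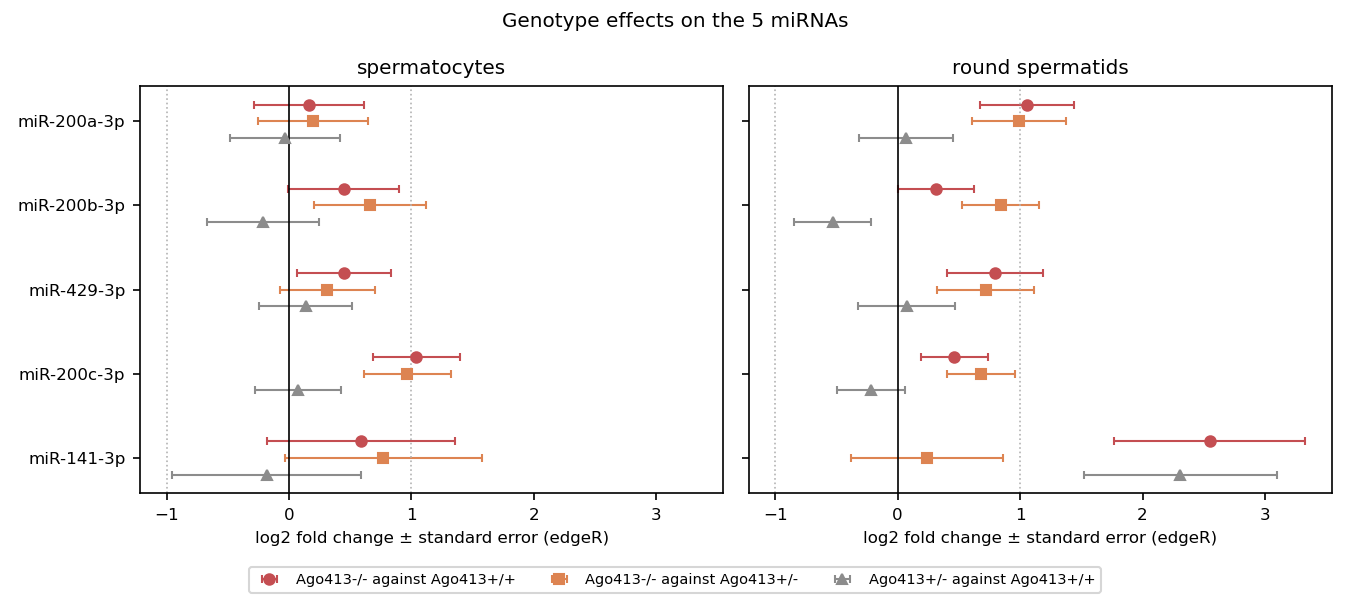
Genotype effect on each strand (y axis), as the log2 fold change ± standard error from edgeR (x axis), for the 3 genotype comparisons, in spermatocytes (left) and round spermatids (right). Dotted lines mark a log2 fold change of 1 in either direction. The Ago413-/- against Ago413+/+ points lie right of 0 for all 5 strands, with miR-141-3p at 2.55 in round spermatids, and the comparisons of a cell type share libraries. Between those genotypes 49.0% of all miRNAs tested in spermatocytes and 57.7% in round spermatids had a log2 fold change above 0.

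The heterozygotes were set beside both homozygous groups, in comparisons that share those libraries. Between Ago413+/- and Ago413+/+, 0 of 5 strands were called in either cell type, as were 0% of all miRNAs tested in each, and DESeq2 called none of the 5. In spermatocytes the log2 fold changes ran from -0.21 (miR-200b-3p) to 0.14 (miR-429-3p), and 0 strands had an unadjusted p under 0.05 (3.22% of all miRNAs). In round spermatids miR-200b-3p was at 754 ± 175 CPM in Ago413+/+ and 500 ± 190 in Ago413+/- (log2 fold change -0.53, SE 0.314), and those of miR-200a-3p (0.07), miR-429-3p (0.07) and miR-200c-3p (-0.22) lay nearer to 0. miR-141-3p, with 10, 12, 3 and 2 counts in Ago413+/- replicates 1 to 4, had a log2 fold change of 2.31 (SE 0.791, adjusted p = 0.192) and was the 1 strand with an unadjusted p under 0.05, as were 16% of all miRNAs. Its pooled counts, 27 against 6, gave a ratio of rates of 5.32 with a 95% counting interval of 2.15 to 15.8. That interval covers counting error only and leaves out the spread between libraries. It was tested only because Ago413+/- and Ago413-/- libraries reached 10 counts and no Ago413+/+ library did, so a fold change above 0 was favored by the count minimum, and the groups overlapped.

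Against Ago413+/-, the Ago413-/- means of all 5 strands were higher in both cell types, and no strand was called by edgeR or DESeq2. The background was 2.23% called in spermatocytes and 12.4% in round spermatids. Of all miRNAs tested, 48.8% in spermatocytes and 58.0% in round spermatids had a log2 fold change above 0. In spermatocytes miR-200c-3p had a log2 fold change of 0.97 (SE 0.356, adjusted p = 0.099) and was the 1 strand with an unadjusted p under 0.05 (23.8% of all miRNAs). It was at 302, 323, 512 and 708 CPM in Ago413+/-, so that Ago413+/- replicate 4 overlapped with Ago413-/- (586 to 1400). Without that library the strand was called (1.22, adjusted p = 0.045), and leaving out the library that overlapped favors a call. No other fit that left out 1 library called the strand in this comparison.

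In round spermatids 3 strands had an unadjusted p under 0.05 against Ago413+/-, beside 33.8% of all miRNAs. These were miR-200a-3p (0.99, SE 0.384, adjusted p = 0.082), miR-200b-3p (0.84, SE 0.315, adjusted p = 0.071) and miR-200c-3p (0.68, SE 0.275, adjusted p = 0.095). miR-200a-3p stood at 239, 875, 458 and 464 CPM in Ago413+/-, and replicate 2 was the library that overlapped with Ago413-/-. Without it miR-200a-3p was called (1.37, adjusted p = 0.025), and leaving out the library that overlapped favors a call. Leaving out Ago413-/- replicate 2 brought both miR-200a-3p (1.17, adjusted p = 0.049) and miR-200b-3p (1.03, adjusted p = 0.035) past the threshold, and leaving out Ago413+/- replicate 3 did so for miR-200b-3p (1.07, adjusted p = 0.044). miR-429-3p (0.72, SE 0.395) and miR-141-3p (0.24, SE 0.623) were further from the threshold. No other fit that left out 1 library called a strand in this comparison.

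The summed level of the 5 strands followed the same order of means in both cell types. In spermatocytes it was 1840 ± 528 CPM in Ago413+/+, 1720 ± 730 in Ago413+/- and 2747 ± 1375 in Ago413-/-. In Ago413-/- it was 2253, 2077, 4795 and 1861 CPM, and 3 of the 4 libraries lay within the Ago413+/+ range (1076 to 2288). In round spermatids it was 1758 ± 263 CPM in Ago413+/+, 1445 ± 433 in Ago413+/- and 2450 ± 635 in Ago413-/-, with Ago413-/- at 3084, 1742, 2877 and 2096 CPM. There the lowest Ago413-/- libraries again lay within the Ago413+/+ range (1476 to 2105), and no test was run on the sum.

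The cell types were compared within each genotype in a fit of all 24 libraries (450 miRNAs tested). In Ago413+/+, the 4 abundant strands had nearly equal means in round spermatids and spermatocytes, with log2 fold changes from -0.17 (miR-200a-3p) to 0.03 (miR-200b-3p). miR-141-3p was lower in round spermatids, with 3, 0, 0 and 3 counts against 20, 7, 24 and 2 in spermatocytes (log2 fold change -2.99, SE 0.908). Its groups did not overlap in CPM (0 to 6.10 against 6.35 to 33.2), with round spermatids lower, which held for 0.889% of the miRNAs tested. The edges of these ranges are 3 and 2 counts, and the 0 of replicate 3 allows up to 10.2 CPM, so counting error could make the ranges overlap. Its unadjusted p was the lowest of all 450 in the edgeR fit, and after adjustment it did not pass (adjusted p = 0.823). No strand was called, as was the case for 0% of all miRNAs, this strand alone of the 5 had an unadjusted p under 0.05 (2.22% of all), and DESeq2 called none of the 5.

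In Ago413+/-, 0 of 5 strands were called between the cell types (0% of all miRNAs), none had an unadjusted p under 0.05 (3.33% of all), DESeq2 called none, and the log2 fold changes ran from -0.53 (miR-141-3p) to -0.04 (miR-429-3p). In Ago413-/-, 0 of 5 were called by edgeR or DESeq2 against 4.89% of all miRNAs, and miR-200c-3p was the 1 strand with an unadjusted p under 0.05 (27.8% of all). It was at 935 ± 340 CPM in spermatocytes and 524 ± 110 in round spermatids (log2 fold change -0.84, SE 0.325, adjusted p = 0.101). miR-141-3p (-1.24, SE 0.762) and miR-200b-3p (-0.29, SE 0.413) were also lower, and miR-200a-3p (0.55, SE 0.443) and miR-429-3p (0.22, SE 0.395) higher in round spermatids.

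The difference between the cell types in the effect of Ago413-/- against Ago413+/+ was tested directly, and no strand passed, nor did any of the 450 miRNAs (0%). None of the 5 strands had an unadjusted p under 0.05 (12.2% of all miRNAs), and DESeq2 called none. The log2 difference of the effects (round spermatids minus spermatocytes) was -0.76 (SE 0.458) for miR-200c-3p, 0.72 (SE 0.624) for miR-200a-3p, 1.75 (SE 1.18) for miR-141-3p, -0.32 (SE 0.583) for miR-200b-3p and 0.20 (SE 0.554) for miR-429-3p. The higher miR-200c-3p of spermatocytes and the higher miR-141-3p of round spermatids were therefore not shown to differ between the cell types.

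Ratios of strands within a library do not depend on how the libraries were scaled, and they are given as a description. miR-200a-3p and miR-200b-3p lie in the same cluster, and their count ratio ran from 0.403 to 1.60 with a median of 0.788. In round spermatids it was 0.424 to 0.790 in Ago413+/+, 0.637 to 1.60 in Ago413+/- and 0.882 to 1.24 in Ago413-/-. In spermatocytes it was 0.623 to 0.823 in Ago413+/+, 0.628 to 1.26 in Ago413+/- and 0.403 to 0.726 in Ago413-/-. These groups were looked at after the ratios were seen, and how often other pairs of miRNAs give ranges this far apart was not computed.

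miR-429-3p, of the same cluster, was much scarcer than miR-200b-3p in every library, with a count ratio between 0.070 and 0.210. The ratio of miR-200c-3p, from the other cluster, to miR-200b-3p varied most of these 3 pairs, from 0.346 to 1.79, and overlapped between all genotypes of a cell type. Summed by cluster, the chromosome 6 strands had 0.171 to 0.995 counts for each count of the chromosome 4 strands. Summed by seed, the AACACUG strands had 0.228 to 1.01 counts for each count of the AAUACUG strands.

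**Figure D3:**
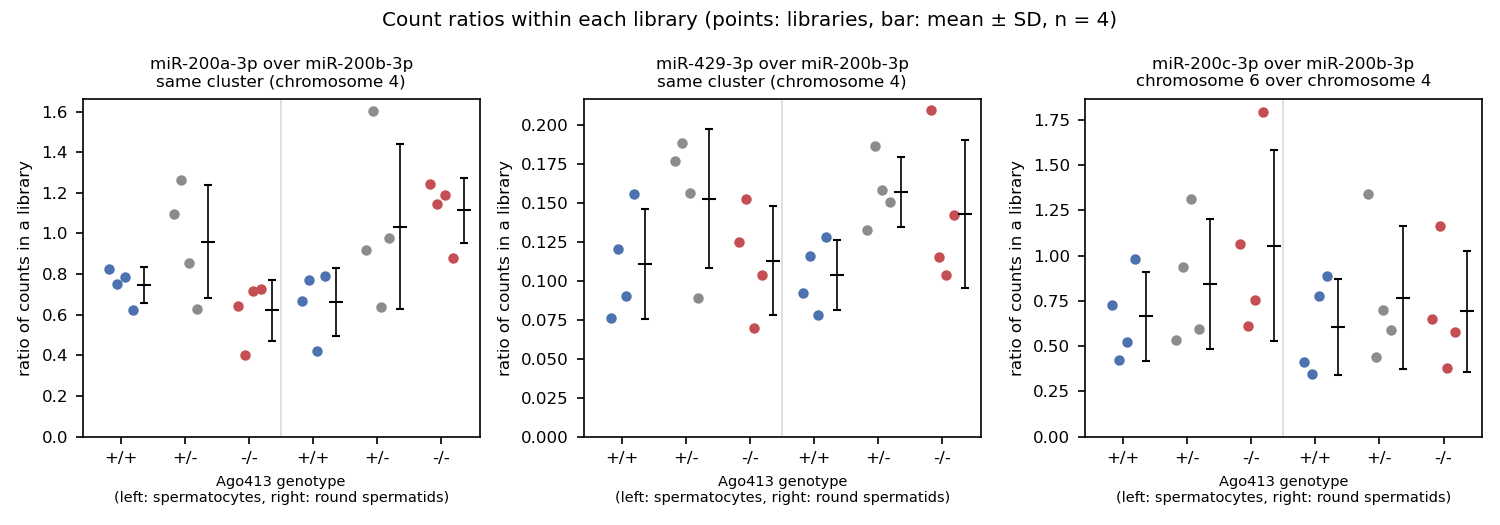
Count ratios within each library (y axes, linear from 0) for 3 pairs of strands, by genotype (x axis), with spermatocytes left and round spermatids right of the grey line. Points are libraries and black bars the mean ± SD of 4. The ratio of miR-200a-3p to miR-200b-3p is 0.882 to 1.24 in Ago413-/- round spermatids and 0.424 to 0.790 in Ago413+/+ round spermatids. In spermatocytes it is 0.403 to 0.726 in Ago413-/- and 0.623 to 0.823 in Ago413+/+. These groups were looked at after the ratios were seen, and the ranges of other pairs of miRNAs were not computed.

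Across the 24 libraries, the strands of the chromosome 4 cluster varied together. On the log2(CPM + 1) scale, Pearson's r was 0.75 between miR-200a-3p and miR-200b-3p, 0.74 between miR-200b-3p and miR-429-3p and 0.72 between miR-200a-3p and miR-429-3p. Between miR-200c-3p and miR-141-3p, the latter with few counts, it was 0.35. Between miR-141-3p and the chromosome 4 strands it was 0.42 for miR-200a-3p, 0.15 for miR-200b-3p and 0.01 for miR-429-3p. With so few counts of miR-141-3p, these values cannot rank the clusters by how far their strands vary together. Between miR-200c-3p and the chromosome 4 strands r was 0.50 for miR-200b-3p, 0.18 for miR-429-3p and 0.18 for miR-200a-3p. These values describe 24 libraries that share groups and scaling, and the strands share bases, so no p is given.

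The miRNAs outside the family whose level was most like its summed level, among 443 candidates, were miR-181b-5p (r = 0.82), miR-204-5p (0.76), miR-547-3p (0.75), miR-125a-5p (0.74) and miR-98-5p (0.73, all over 24 libraries), where the median candidate had an r of -0.01. Each kept an r of at least 0.61 within the 12 libraries of either cell type. miR-181b-5p was at 266 ± 89.9 CPM in Ago413+/+, 179 ± 64.6 in Ago413+/- and 400 ± 169 in Ago413-/- round spermatids, the same order of means as the family. That order is favored by its choice as the most alike in these same libraries, and is no further likeness. The summed level had an r of -0.03 with the library total, 0.10 with the epithelial list, 0.17 with the blood list, 0.36 with the endothelial list, 0.10 with the peritubular list and -0.49 with the list of meiotic germ cells.

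**Figure D4:**
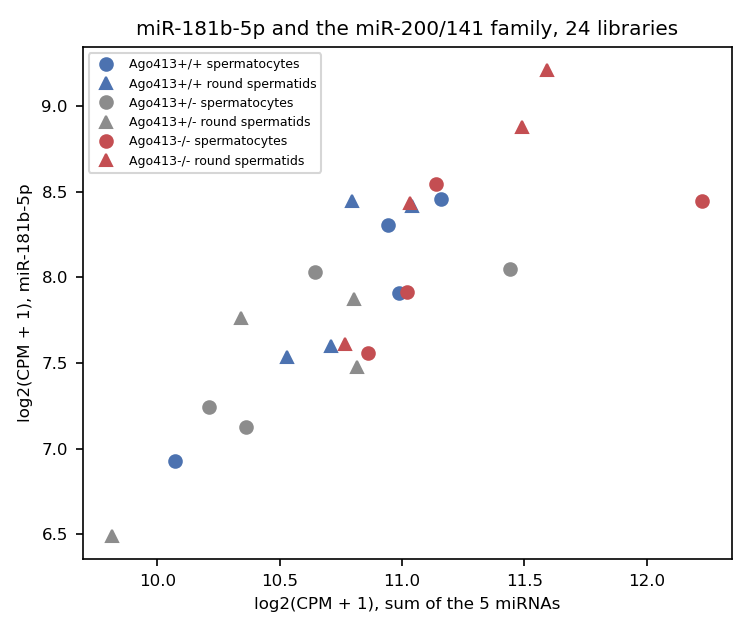
Level of miR-181b-5p (y axis) against the summed level of the 5 strands (x axis), both as log2(CPM + 1), in 24 libraries. Colors are genotypes, circles spermatocytes and triangles round spermatids. The points rise together (r = 0.82), and the rightmost circle is replicate 3 of the Ago413-/- spermatocytes.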

How the data were processed

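The authors trimmed small RNA reads (NEBNext kit, 100 ng of total RNA) with Trim Galore and used miRDeep2 to count them on the mature miRNAs listed for the mouse in miRBase, and deposited raw counts of 1978 single miRNAs, neither normalized nor summed by family. Groups and replicate numbers came from the labels. Nothing says that replicates of a group came from separate mice, so p-values measure the spread between these libraries, which may be technical. A count of 0 allows up to 3 counts, and intervals cover counting error only, since reads copied by PCR and not marked by molecular identifiers are not independent.

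A miRNA entered a fit when 3 or more of its libraries held 10 or more counts, and was tested with edgeR 4.0.16 in R 4.3.3 (TMM, quasi-likelihood test, no covariates). The 12 libraries of a cell type entered the genotype fits (404 and 426 miRNAs) and all 24 the comparisons of cell types and the interaction (450). p-values were two-sided and Benjamini-Hochberg adjusted over all miRNAs of a fit, and a call needed an adjusted p under 0.05 and a log2 fold change of 1 or more in either direction. Standard errors were taken from the fold change and the root of its F statistic. Counting intervals of rate ratios are exact at the 95% level. The test was run on simulated counts for Ago413-/- against Ago413+/+ round spermatids alone, with changes larger than those of most strands here. Its outcome is not given, so it lends no weight to the calls.

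Named miRNAs were the 5 members, the 5p arms of their hairpins, the 5 outside miRNAs with the highest Pearson's r with the summed members on log2(CPM + 1), and marker lists of epithelium, blood, endothelium, peritubular cells and meiotic germ cells. The members and lists were chosen with earlier results of these data known. Sequences and positions came from RefSeq (GRCm38.p6) and overlapping genes from the GENCODE annotation of that build. Alternatives were DESeq2 1.42.0, RLE scaling, unscaled totals, no count minimum, 10 counts in every library, a replicate block, fits of only the 2 genotypes compared, with and without a term that split replicates 1 and 2 from 3 and 4, a pseudocount of 5 and leaving out each library.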

Additional observations from a re-analysis of the deposited data

Results flagged for a closer look

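In each group of 4 libraries the highest and lowest library were set against the other 3 by the gap to its neighbor, for the 5 strands and their sum. Of 36 such sets, 2 had a library that stood apart beyond Dixon's 95% critical value, where chance gives about 1 in 20, or 1.8 of 36. Both were replicate 3 of the Ago413-/- spermatocytes. miR-200a-3p was at 1326 CPM there (358 counts) and at 370 to 507 CPM in the other 3 libraries. The 5 strands summed to 4795 CPM there (1295 counts) and to 1861 to 2253 CPM in the other 3. The second set contains the first, so they are not independent. No strand passed the test of a difference in genotype effect between the cell types.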

How the results depend on the processing

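Depth limited miR-141-3p most, with 24 counts or fewer in every library, and the smallest libraries were those of Ago413-/- spermatocytes. No strand of the family was called in any comparison with RLE scaling or unscaled totals other than miR-141-3p in Ago413-/- against Ago413+/+ round spermatids. Over all strands and comparisons, apart from the fits that left out a library, 309 values kept their direction and side of the threshold, 14 changed sign, 2 came past the threshold and 1 no longer did. Among the fits that left out 1 library these numbers were 377, 49, 6 and 2. The causes of these changes were not tested, other than where a strand dropped under a count minimum.

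The number of called strands changed as follows. Between Ago413-/- and Ago413+/+ spermatocytes DESeq2 called 1 strand (miR-200c-3p) in place of 0. Between Ago413-/- and Ago413+/+ round spermatids 0 strands in place of 1 were called with 10 counts in every library, with only the 2 genotypes compared, and with those 2 genotypes and a term for replicates 1 and 2 against 3 and 4. miR-141-3p missed the minimum in the first of these and, once the heterozygotes were left out, in the other 2. Leaving out a library gave 0 to 2 there, 0 to 1 in Ago413-/- against Ago413+/- spermatocytes and 0 to 2 in Ago413-/- against Ago413+/- round spermatids. With no count minimum, 1 strand (miR-141-3p, log2 fold change -3.03, adjusted p = 0.0057) was called between the cell types in Ago413+/+.

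The replicate numbers were not treated as pairing the libraries, since the correlations of same-numbered deviations were not all over 0.1 in any comparison (-0.386 to 0.425), and in no comparison did every library correlate best with its own number (3 of 4 at most). With the replicate number as a block, 0 strands in place of 1 were called between Ago413-/- and Ago413+/+ round spermatids, where miR-141-3p had a log2 fold change of 2.53 (adjusted p = 0.054). The block turned miR-200a-3p in Ago413+/- against Ago413+/+ spermatocytes to 0.098 and changed no other call of a strand. Between the cell types the block was the replicate within a genotype. Library numbers of same-numbered spermatocyte and round spermatid libraries were consecutive in 11 of 12 cases, so some may come from the same preparation, which the labels do not state. With this block 0 strands were called between the cell types or for the difference of the genotype effects, as without it.

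The other values that changed sign were all near 0. With library totals these were miR-200a-3p in Ago413-/- against Ago413+/+ spermatocytes (-0.023), miR-200c-3p in Ago413+/- against Ago413+/+ spermatocytes (-0.048), miR-141-3p in Ago413-/- against Ago413+/- round spermatids (-0.020), and miR-200b-3p (-0.099) and miR-429-3p (-0.087) between the cell types in Ago413+/+. This scaling moved the median of all miRNAs in Ago413-/- against Ago413+/+ from -0.05 to -0.24 in spermatocytes and from 0.13 to -0.09 in round spermatids. With no count minimum these were miR-429-3p (-0.0084) and miR-200c-3p (-0.070) in Ago413+/- against Ago413+/+ spermatocytes, miR-200a-3p (-0.026) and miR-429-3p (-0.020) in round spermatids, and miR-200b-3p (-0.025) and miR-429-3p (-0.025) between the cell types in Ago413+/+. With only the 2 genotypes compared, miR-200a-3p was at -0.0025 in Ago413+/- against Ago413+/+ round spermatids, and with 10 counts in every library miR-200b-3p was at -0.00025 between the cell types in Ago413+/+.

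Leaving out each library in turn gave ranges that crossed 0 for these strands. In Ago413-/- against Ago413+/+ spermatocytes they were -0.40 to 0.36 (miR-200a-3p) and -0.78 to 0.94 (miR-141-3p), and against Ago413+/- -0.38 to 0.44 and -0.61 to 1.34. In Ago413+/- against Ago413+/+ spermatocytes they were -0.39 to 0.18 (miR-200a-3p), -0.67 to 0.0011 (miR-200b-3p), -0.095 to 0.31 (miR-429-3p), -0.14 to 0.15 (miR-200c-3p) and -0.69 to 0.073 (miR-141-3p), and in round spermatids -0.31 to 0.29 (miR-200a-3p) and -0.13 to 0.32 (miR-429-3p). In Ago413-/- against Ago413+/- round spermatids it was -0.21 to 0.37 (miR-141-3p). Between the cell types the ranges in Ago413+/+ were -0.22 to 0.13 (miR-200b-3p), -0.24 to 0.15 (miR-429-3p) and -0.25 to 0.045 (miR-200c-3p). In Ago413+/- they were -0.51 to 0.15 (miR-200a-3p), -0.54 to 0.17 (miR-200b-3p), -0.25 to 0.18 (miR-429-3p) and -0.90 to 0.052 (miR-141-3p), and in Ago413-/- -0.39 to 0.16 (miR-200b-3p), -0.16 to 0.54 (miR-429-3p) and -1.51 to 0.20 (miR-141-3p). For the difference of the genotype effects they were -0.44 to 0.13 (miR-200b-3p) and -0.18 to 0.61 (miR-429-3p).

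Counts over all miRNAs moved more. Between Ago413-/- and Ago413+/+ spermatocytes 18 miRNAs were called, against 61 with DESeq2, 55 with no count minimum and 10 with the term for replicates and only the 2 genotypes together. Against Ago413+/- spermatocytes 9 were called, and 57, 40 and, with only the 2 genotypes, 4. In round spermatids the 69 and 53 called in Ago413-/- fell to 42 and 35 with 10 counts in every library. Between the cell types in Ago413-/- 22 were called, 49 with DESeq2 and 43 with no count minimum. Of Ago413+/- against Ago413+/+ round spermatids, with 0 called, DESeq2 called 6.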
